A study of Mus musculus with 12 samples.

Results

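Transcripts of 10 circadian clock genes were measured in single cultured cardiac progenitor cells (CPCs). They were Arntl, Clock, Per1, Per2, Per3, Cry1, Cry2, Nr1d1, Nr1d2 and Dbp, chosen by name from the 21729 genes in the table of read counts. The question was how far single cells differed in these genes, and whether some cells held the activator Arntl high while others held the targets of the loop high. Cultured CPCs were c-Kit+ cells sorted with magnetic beads from hearts of FVB female mice at 12 weeks of age, after depletion of blood lineages, and expanded as an adherent culture in serum and growth factors to passage 5. The aim of the study was to learn what expansion in a dish does to gene expression in CPCs. Smart-Seq v4 libraries of 12 hand-picked cells, named cells 1 to 12, formed 1 group without a treatment or control arm. Hearts were pooled, and since no label ties a cell to a mouse or dish, the group counts as 1 sample. Spreads over cells are descriptions, and no test was made. The hour of harvest and any synchronizing step are not given in the sources used here.

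Total counts ran from 3453708 to 5690184 per cell, and detected genes from 10022 to 11950. Cells 7, 8, 10, 11 and 12 had at most 10181 genes, and the other 7 cells at least 11216. A gene at 0 counts was allowed up to 3 counts as a fixed limit, which is 0.527 to 0.869 CPM (reads of a gene scaled to 1000000 reads in that cell). Such limits cover counting error only. Kit, the receptor used for sorting, had counts in cell 10 only, at 3.94 CPM. Cell 10 carried the endothelial markers at a summed 10056 CPM and the fibroblast markers at 218 CPM, the lowest of all cells. Of that fibroblast sum Pdgfra gave 175 CPM, the second highest level of this gene. Col1a1, Col1a2, Col3a1 and Ddr2 were at their lowest in cell 10. Cell 3 had the highest sum of haematopoietic markers, at 1622 CPM, of which Cd53 gave 1463 CPM. Csf1r, Lyz2 and Cd68 were also highest there, at 59.1, 30.3 and 69.1 CPM, while Ptprc was at 0 there and in 9 other cells. The fibroblast sum of cell 3 was 859 CPM, below the median of 1493 CPM. Pdgfra and Dcn of that list were nevertheless highest in cell 3, at 276 and 222.5 CPM. In cell 11 Acta2, a smooth muscle actin, was at 3668 CPM, the highest of all cells, while of the other mural markers Rgs5, Myh11 and Cspg4 were at 0 there and Pdgfrb was at 57.6 CPM, above its median of 26.1 CPM. Of 6 cardiomyocyte markers, Myh6, Myh7, Actc1, Ryr2 and Nppa were at 0 in all 12 cells, while Tnnt2 was counted in 10 cells and reached 86.6 CPM (cell 12) and 59.1 CPM (cell 8).

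The mammalian clock is a feedback loop of transcription. The proteins of Arntl (also called Bmal1) and Clock bind E-boxes and switch on the Per, Cry, Nr1d and Dbp genes. Period and cryptochrome proteins then block these activators, while the Nr1d receptors (Rev-erb) repress Arntl through ROR elements. In a rhythmic tissue, heart included, Arntl transcripts therefore peak at the opposite time of day from Dbp, Nr1d1 and Per3. Cells in a dish keep such rhythms singly and drift out of step with each other unless a stimulus resets them.

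Promoter stretches are shown for 5 genes because they carry the letters through which the loop is known to act. They were taken from RefSeq on GRCm38.p6, the assembly that mm10 names, in the 5′ to 3′ direction of the gene, and capitals mark the motif. For Per1 (chr11:69098699-69098948, plus strand), Cry1 (chr10:85185055-85185304, minus strand), Nr1d1 (chr11:98775378-98775627, minus strand) and Per3 (chr4:151044666-151044915, minus strand) the 250 bases before the annotated start are given, and for Arntl (chr7:113207530-113207559, plus strand) a stretch of 30 bases that lies after it. For Per1, Cry1 and Arntl this RefSeq start lies inside the gene range given with the values, and for Nr1d1 outside it.
Per1: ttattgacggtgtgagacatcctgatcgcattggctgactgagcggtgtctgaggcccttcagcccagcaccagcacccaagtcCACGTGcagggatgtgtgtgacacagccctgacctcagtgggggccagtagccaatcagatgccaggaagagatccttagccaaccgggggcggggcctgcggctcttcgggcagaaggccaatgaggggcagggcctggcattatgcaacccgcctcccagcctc
Cry1: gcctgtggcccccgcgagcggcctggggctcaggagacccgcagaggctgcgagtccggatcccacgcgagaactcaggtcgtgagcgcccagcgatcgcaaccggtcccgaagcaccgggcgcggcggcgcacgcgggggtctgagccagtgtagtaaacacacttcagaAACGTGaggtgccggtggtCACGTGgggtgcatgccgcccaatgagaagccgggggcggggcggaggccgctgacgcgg
Nr1d1: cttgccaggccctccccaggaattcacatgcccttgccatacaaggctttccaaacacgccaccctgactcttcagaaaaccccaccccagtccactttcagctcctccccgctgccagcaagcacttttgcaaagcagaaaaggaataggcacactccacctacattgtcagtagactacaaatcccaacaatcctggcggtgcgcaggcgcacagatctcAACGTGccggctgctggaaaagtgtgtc
Per3: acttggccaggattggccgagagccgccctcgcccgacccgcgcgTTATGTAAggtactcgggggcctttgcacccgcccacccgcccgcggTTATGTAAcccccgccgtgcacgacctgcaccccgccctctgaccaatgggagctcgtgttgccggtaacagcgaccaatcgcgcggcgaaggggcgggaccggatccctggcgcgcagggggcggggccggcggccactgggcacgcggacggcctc
Arntl: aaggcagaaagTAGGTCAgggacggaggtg
Capitals mark the E-box CACGTG 166 bases before the start of Per1 and 60 bases before that of Cry1. Cry1 and Nr1d1, and Cry2 (not shown), also hold the E-box variant CACGTT, which reads AACGTG on the other strand. In Per3 they mark 2 copies of the D-box TTATGTAA, the site that Dbp protein and its relatives bind, at 205 and 158 bases before the start. In Arntl they mark TAGGTCA, the core of a ROR element, 30 bases after the start. Windows of 300 bases, running from 250 before to 50 after a start, were searched on both strands for 9 of the 10 genes, all but Per2. The E-box stood in 7.15% of all 32851 windows, the variant in 4.68%, the D-box (TTATGTAA or TTACGTAA) in 1.06% and the ROR core (TAGGTCA or TGGGTCA) in 6.45%. TGACGTCA, the CRE that CREB binds, was in no window of the 9 genes and in 1.79% of all. The windows of Dbp, Nr1d2 and the 3 starts of Clock held none of these motifs, nor did those at the other listed start of Per1 and of Arntl. A match of letters is a description and does not show binding, and a window without one says nothing of the factor.

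All 10 clock genes were transcribed in this culture, and most at low levels. Of 120 values (10 genes in 12 cells), 107 had a count and 13 were at 0. Arntl, Clock, Per1, Nr1d1 and Nr1d2 had counts in every cell, which is 5 of 10 genes, against 35.3% of all genes in the table. Of the 9701 genes whose mean reached 5 CPM with counts in 3 or more cells, a filter that all 10 clock genes passed, 78.0% had counts in every cell. Clock and Nr1d1 reached 10 CPM in every cell, against 21.5% of all genes in the table.

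Levels of different genes were compared per exon length, as TPM (transcripts scaled to 1000000). The medians over cells were 43.6 TPM for Nr1d1, 22.4 TPM for Nr1d2, 16.0 TPM for Arntl, 14.3 TPM for Per1 and 12.98 TPM for Cry1. Below these lay Clock with 5.14 TPM, Cry2 with 4.31 TPM, Per2 with 3.78 TPM, Dbp with 3.70 TPM and Per3 with 1.49 TPM. By median the Rev-erb pair led the order and Per3 closed it. Nr1d2 was above Arntl in 7 of 12 cells and below it in 5. Nr1d1 was above Nr1d2 in 10 of 12 cells, and Clock above Cry2 in 10 of 12. Arntl was above Per1 in 6 of 12 cells, and Per1 above Cry1 in 6 of 12, so these neighbours had no order in single cells. Per2 was above Dbp in 2 of 12 cells only, below it in 8 and tied with it at 0 in 2, the reverse of the order of their medians. The ranges over cells of all neighbours in the order overlapped.

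**Figure D1:**
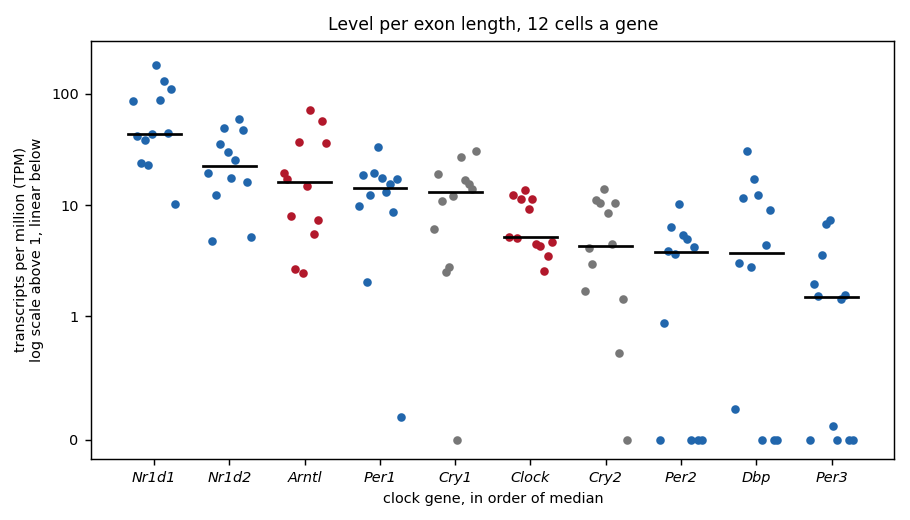
Level of each clock gene per exon length (y axis, TPM, log scale above 1 and linear below) in the order of the medians (x axis). Each point is 1 of 12 cells in the order of their numbers and each black line is the median, which runs from 43.6 TPM for Nr1d1 to 1.49 TPM for Per3; red marks the activators, grey the cryptochromes and blue the other targets.

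The activators differed from each other in how evenly they were expressed. Arntl (chromosome 7, 113207465 to 113314126, plus strand, mm10) encodes the partner whose level is rhythmic in most tissues. Its lowest level was 6.64 CPM in cell 6, its median 43.2 CPM and its highest 189 CPM in cell 8, a 28.5-fold range. Cells 11, 5 and 12 followed with 147, 99.5 and 89.5 CPM, and cell 4 had 7.43 CPM. The mean was 61.4 ± 58.8 CPM (SD, 12 cells). Exact 95% Poisson intervals were 4.298 to 9.80 CPM in cell 6 and 178 to 201.3 CPM in cell 8 and so lay far apart. Clock (chromosome 5, 76209868 to 76304792, minus strand) is the partner that varies little over the day in most tissues. It ran from 12.0 CPM in cell 10 over a median of 27.3 CPM to 67.9 CPM in cell 5, a 5.65-fold range. Its mean was 36.1 ± 20.0 CPM. Of the cells highest for Arntl, cell 8 had 21.8 CPM and cell 11 had 16.2 CPM of Clock, both below its median, while cell 5 was the highest for Clock.

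**Figure D2:**
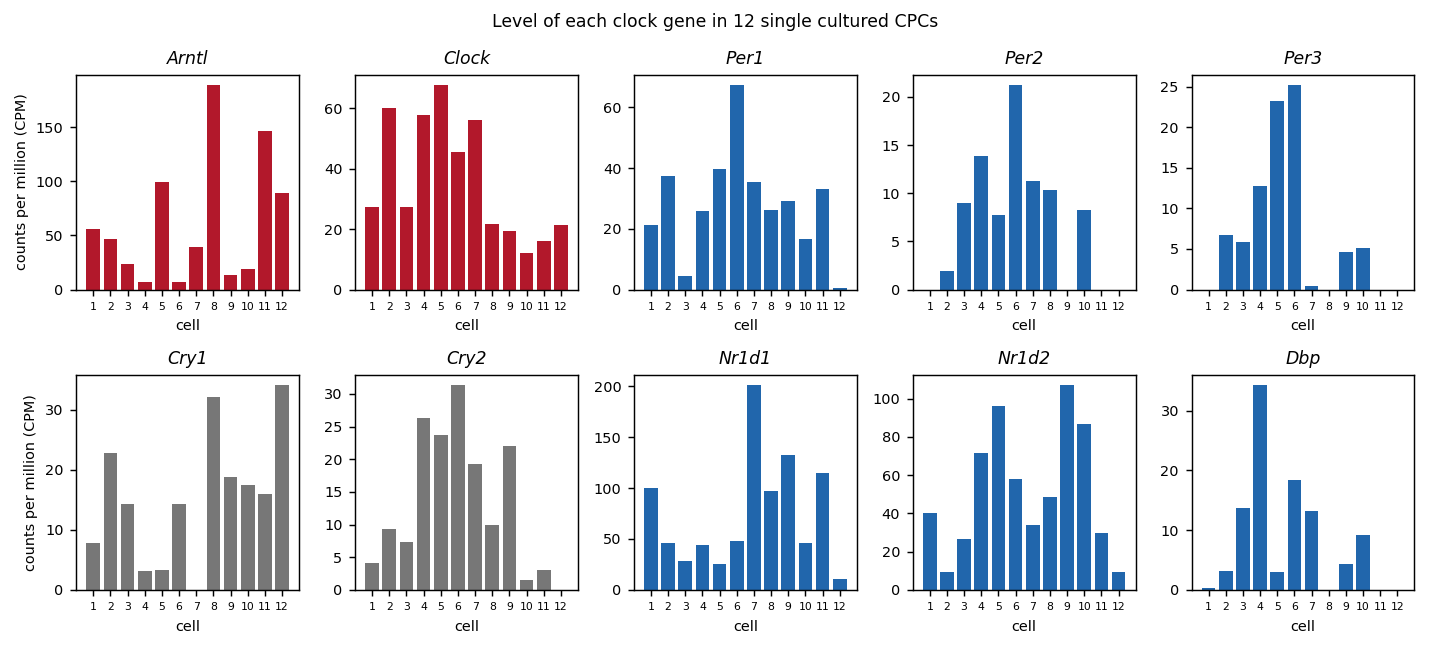
CPM of each clock gene (y axis, linear from 0, its own scale for each gene) in cells 1 to 12 (x axis), with activators in red, cryptochromes in grey and the other genes in blue. Arntl is tallest in cells 8 and 11, where Dbp and Per3 have no bar, and lowest in cells 4 and 6, where Dbp and Per3 are high.

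The Period genes encode the repressors whose accumulation closes the loop. Per1 (chromosome 11, 69095217 to 69109960, plus strand) had counts in every cell, from 2 counts in cell 12 (0.351 CPM) over a median of 27.7 CPM to 67.5 CPM in cell 6. Without the lowest cell, its next value was 4.48 CPM in cell 3. Per2 (chromosome 1, 91415982 to 91459324, minus strand) was at 0 in cells 1, 9, 11 and 12, had a median of 8.01 CPM and reached 21.3 CPM in cell 6. Per3 (chromosome 4, 151003652 to 151044665, minus strand) was at 0 in cells 1, 8, 11 and 12, with a median of 4.84 CPM and 25.2 CPM in cell 6. Cell 6 was therefore highest for all 3 Period genes, with a sum of 114 CPM, and cell 12 was lowest, with 0.351 CPM. The median of that sum was 35.1 CPM.

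The cryptochromes are the partners of the Period proteins, and Cry1 is known to peak later than the other E-box genes because it carries ROR elements too. Cry1 (chromosome 10, 85131700 to 85185064, minus strand) was at 0 in cell 7, had a median of 15.1 CPM and was highest in cell 12, at 34.1 CPM, followed by cell 8 with 32.2 CPM. Cry2 (chromosome 2, 92403646 to 92434043, minus strand) was at 0 in cell 12, had a median of 9.69 CPM and was highest in cell 6, at 31.3 CPM. The pair thus had their extremes in different cells, with Cry1 highest where Cry2 was at 0. Their r over cells was -0.50 on log2(CPM + 1), the scale of all correlations here.

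The Rev-erb receptors bind haem and repress Arntl. Nr1d1 (chromosome 11, 98767932 to 98775333, minus strand) ran from 10.4 CPM in cell 12 over a median of 46.8 CPM to 201.4 CPM in cell 7. Cells 9, 11 and 1 also lay high, with 132, 115 and 100 CPM. Nr1d2 (chromosome 14, 18204054 to 18239127, minus strand) ran from 9.14 CPM in cell 2 over a median of 44.3 CPM to 107 CPM in cell 9. Cell 12 was low for both, with 9.31 CPM of Nr1d2. Exons of Nr1d1 overlap those of Thra, the thyroid hormone receptor on the opposite strand, over 263 bases (8.55% of the exon length of Nr1d1). The libraries do not mark strand, so the reads of such a stretch cannot be told apart. Thra stayed between 4.48 and 31.6 CPM, and its r with Nr1d1 was 0.07.

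Dbp (chromosome 7, 45705088 to 45710203, plus strand) encodes a PAR bZIP factor that carries the rhythm to D-box genes, and it is among the most direct targets of Arntl and Clock. It was at 0 in cells 8, 11 and 12 and had 1 count in cell 1. Its median was 3.81 CPM, and it was highest in cell 4, with 143 counts or 34.3 CPM (exact 95% Poisson interval 28.9 to 40.4 CPM). Cells 6, 3, 7 and 10 followed with 18.3, 13.7, 13.1 and 9.20 CPM. Exons of Dbp share 539 bases, or 18.01% of its length, with Sphk2, a sphingosine kinase gene on the other strand. Reads of that stretch cannot be told apart either. Sphk2 was highest in cell 11, at 26.5 CPM, where Dbp was at 0, and its r with Dbp was -0.19.

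Single cells did sit at opposite ends of the Arntl and Dbp axis. The cells with the most Arntl were cells 8, 11, 5 and 12, and of these cells 8, 11 and 12 had no Dbp count, while cell 5 had 2.98 CPM. Cell 9 had 13.8 CPM of Arntl and 4.40 CPM of Dbp, low for Arntl and near the median for Dbp. The cells with the least Arntl were cells 6 and 4, with 6.64 and 7.43 CPM, and they had the 2 highest levels of Dbp. The r of Arntl and Dbp over 12 cells was -0.86, with a rank correlation of -0.89. Among all 9700 other genes, Dbp had the lowest r with Arntl, and Arntl had the lowest r with Dbp. AI987944 and Btbd7 were among the next for Arntl, with r of -0.84 and -0.83. These genes are no clock genes and lay close behind Dbp, so the place of Dbp among them is a description of these 12 cells. When any cell was left out, r stayed between -0.89 and -0.82 and Dbp stayed among the 6 lowest genes. Without cells 3 and 10, which had the highest haematopoietic and endothelial sums, r was -0.86 and Dbp stood in place 6. Within the 7 cells with more detected genes r was -0.80, and Dbp then stood in place 156.

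**Figure D3:**
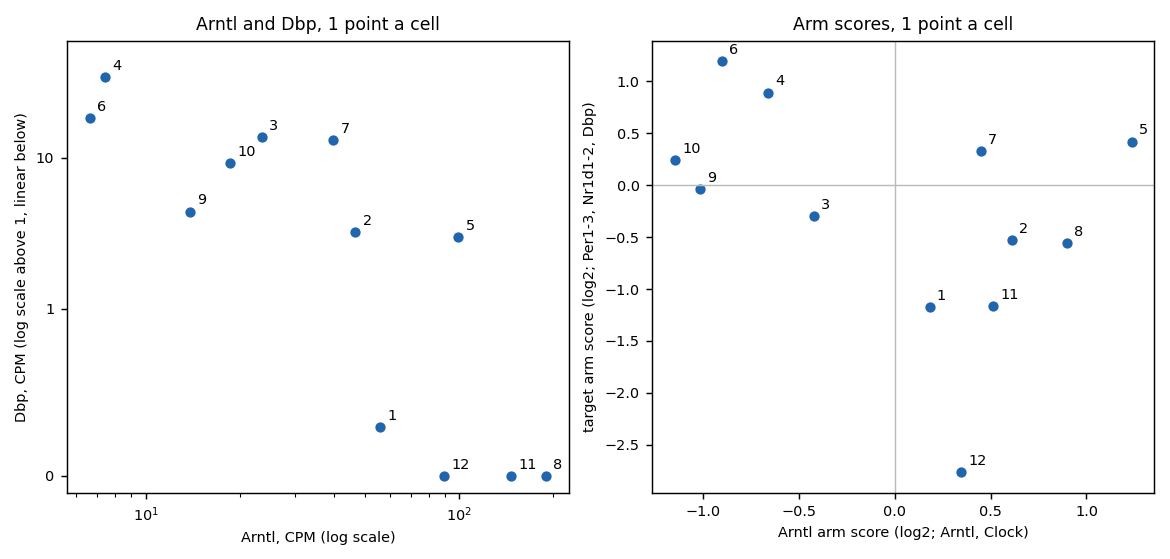
Left, Dbp (y axis, CPM, log scale above 1 and linear below) against Arntl (x axis, CPM, log scale), with 1 numbered point for each of 12 cells; right, the target arm score (y axis, log2) against the Arntl arm score (x axis, log2). Cells 4 and 6 lie at the top left of both panels, and cells 8, 11 and 12 at the bottom right of the left panel. In the right panel cells 1, 2, 8, 11 and 12 are above 0 in the Arntl arm and below 0 in the target arm. Cells 5 and 7 are above 0 in both arms.

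Per2 and Per3 tended to be high where Dbp was high. The r of Per3 with Dbp was 0.71 and that of Per2 with Dbp 0.70, and Per2 and Per3 had an r of 0.55. With Arntl the r was -0.64 for Per3 and -0.39 for Per2. At r of at most -0.5 with Arntl stood 2 of the 9 other clock genes, Per3 and Dbp, against 5.26% of all genes. None stood at 0.5 or more with Arntl, against 2.39%. The count at -0.5 or less was 4 of 9 without cell 5, against 8.43% of all genes, and 4 of 9 without cell 8, against 4.53%. At r of at least 0.5 with Dbp stood 3 of 9, which were Per2, Per3 and Cry2, against 6.05%. In cells 1, 11 and 12 each of Per2, Per3 and Dbp had at most 1 count, and Arntl was at 55.9, 147 and 89.5 CPM there. Of 278 genes at the mean level of Per2, Per3 and Dbp (6.97 to 8.29 CPM), 25.5, 23.7 and 26.3% had no count in cells 8, 11 and 12, and 6.12% in cell 1. The share was slightly lower in cell 7, at 23.0%, and highest in cell 10, at 30.2%, and in both of these cells Dbp, Per2 and Per3 all had counts. The r with the number of detected genes was -0.49 for Arntl, 0.63 for Per3, 0.35 for Dbp and 0.06 for Per2. The part of detection in the low values of cells 8, 11 and 12 was not tested.

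Nr1d1 did not share this pattern. Its r was 0.02 with Arntl and -0.01 with Dbp, although all 3 genes had wide ranges. Cell 11 was high for Arntl and for Nr1d1 (147 and 115 CPM), and cell 8 likewise (189 and 96.7 CPM). Cell 7 had the most Nr1d1 and an Arntl level of 39.7 CPM, close to the median. Within cells, the log2 ratio of Arntl to Nr1d1 counts lay between -3.26 (cell 9) and 3.11 (cell 12), a measure that does not depend on the total of a cell. Cells 6, 4 and 7 lay at -2.84, -2.56 and -2.34, and cell 5 at 1.97. Per1 was the clock gene nearest to Nr1d1, with an r of 0.63 that was 0.26 without cell 12. Nr1d2 had an r of 0.32 with Nr1d1, which was -0.04 without cell 12, and of -0.37 with Arntl. Without cell 12, Nr1d1 had an r of -0.36 with Dbp and of -0.77 with Per3.

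The loop as a whole was split less clearly than Arntl and Dbp, the pair with the lowest r, which was singled out after seeing the data. For an arm score, the log2(CPM + 1) of each gene was centred on its own median and then averaged over the arm. The Arntl arm held Arntl and Clock, and the target arm Per1, Per2, Per3, Nr1d1, Nr1d2 and Dbp. The scores had opposite signs in 8 of 12 cells. In cells 4, 6 and 10 the target arm was above 0 and the Arntl arm below it. In cells 1, 2, 8, 11 and 12 the order was the reverse. Cells 5 and 7 were above 0 in both arms, and cells 3 and 9 below 0 in both. The difference, target arm minus Arntl arm, was lowest in cell 12 at -3.11 and highest in cell 6 at 2.10, with an SD of 1.57. The r of the arms was only -0.39 over 12 cells, a weak relation, with -0.57 to -0.28 when a cell was left out and -0.37 without cells 3 and 10. Scores centred on medians give opposite signs easily, so the 8 cells are a description. It depended on how the arms were built: with Arntl alone set against Nr1d1, Per3 and Dbp, r was -0.81, and with each gene divided by its SD over cells it was -0.15.

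Clock did not move together with Arntl. Its r was -0.19 with Arntl, its partner, but 0.67 with Cry2, 0.51 with Per3 and -0.60 with Cry1. At r of at least 0.5 with Clock stood 2 of 9 clock genes, against 10.7% of all genes. Cry2 had an r of at least 0.5 with 6 of 9 clock genes (Clock, Per1, Per2, Per3, Nr1d2 and Dbp), against 11.3% of all genes, and its r was 0.74 with Per1. The same count was 4 of 9 for Per3 (8.94% of all genes), 3 of 9 for Per2 (3.65%) and 3 of 9 for Per1 (10.4%). It was 2 of 9 for Nr1d2 (6.10%), 1 of 9 for Nr1d1 (6.53%) and 0 of 9 for Cry1 (5.32%), so Cry1 and Arntl were the genes without such a partner. These counts rested on single cells, and most fell without cell 12. Without it, Cry2 kept Clock and Per3 only, or 2 of 9 genes against 12.2% of all genes, and its r with Per1 was 0.47, with Dbp 0.47, with Per2 0.41 and with Nr1d2 0.25. Without cell 12 the count was 2 of 9 for Per3 (9.42% of all genes), 2 of 9 for Dbp (5.51%) and 1 of 9 for Per2 (3.12%). It was 1 of 9 for Clock (12.3%), at the background, and 0 of 9 for Per1 (11.5%), Nr1d1 (8.57%) and Nr1d2 (5.63%). Without cell 6 the count was 1 of 9 for Per2 (3.73%) and 2 of 9 for Per3 (9.35%), and without cell 11 it was 1 of 9 (4.80%) and 2 of 9 (11%). Without cell 5 it was 0 of 9 for Nr1d2 (6.27%), and without cell 10 it was 4 of 9 for Clock (9.03%). Both Clock and Cry2 also had r of 0.55 and 0.54 with the number of detected genes. Within the target arm the 15 pairs had a median r of 0.36, with 5 pairs at 0.5 or more. For the single genes of that arm, 3.65 to 10.4% of all genes stood at 0.5 or more. Without cell 12 the median was 0.17 with 2 pairs at 0.5 or more, and without cell 6 there were 3 such pairs. The 12 pairs between the arms had a median r of -0.07. The median r with all 9700 genes lay between -0.04 and 0.11 for each clock gene. All 45 pairs rest on the same 12 cells, which share library kit and scaling, and no p-values are given.

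**Figure D4:**
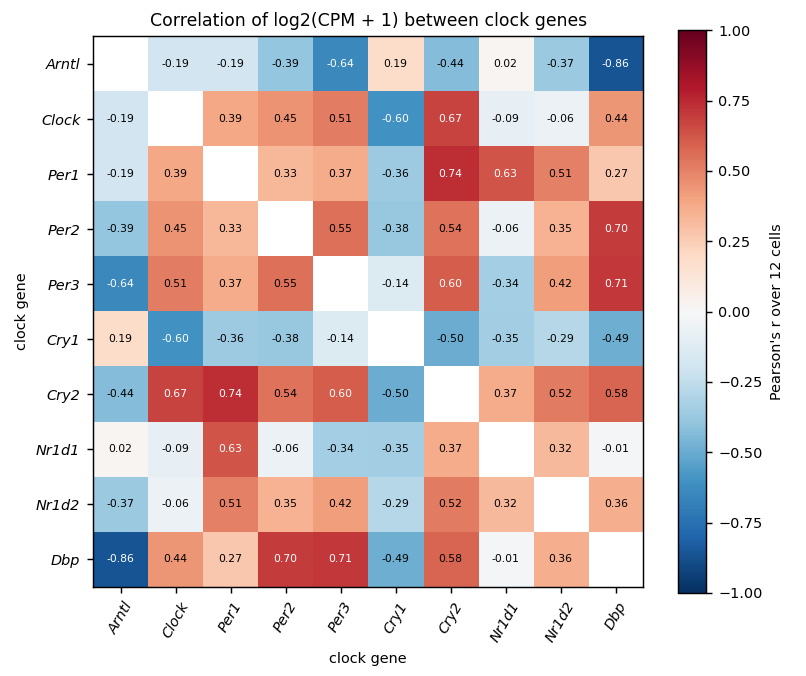
Pearson's r of log2(CPM + 1) over 12 cells for each pair of clock genes (both axes), from -1 in blue to 1 in red, with the value printed in each square. The darkest square is Arntl with Dbp at -0.86; the reddest is Per1 with Cry2 at 0.74, and the row of Nr1d1 is pale against Arntl, Clock, Per2 and Dbp.

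The most divergent cells can be read gene by gene. Cell 12 had 89.5 CPM of Arntl and the highest Cry1 of all cells, at 34.1 CPM. In the same cell Per1 had 2 counts, Per2, Per3, Cry2 and Dbp had none, and Nr1d1 was at its lowest, 10.4 CPM. Ciart, a repressor of the Arntl and Clock pair and itself an E-box gene, went against this and was highest there, at 34.4 CPM. Cell 12 also carried the highest sum of fibroblast markers, at 6764 CPM. Cell 6 was the reverse, with the lowest Arntl and the highest Per1, Per2, Per3 and Cry2. It also had the highest sum of immediate early genes (3590 CPM) and of glucocorticoid-induced genes (985 CPM). Cell 12 lay above the median for both sums as well, with 1968 CPM (median 1104 CPM) and 488 CPM (median 431 CPM). Per1 is known to respond to both kinds of signal. Over all 12 cells the r of Per1 was -0.10 with the immediate early sum and -0.12 with the glucocorticoid sum, and that of Per2 with the latter was 0.59. The part of these signals in cell 6 was not tested.

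Other genes of the clock were read from fixed lists. Of 8 further loop genes, Rora and Bhlhe40 had counts in every cell, against 35.3% of all genes in the table. Rora, the activator that competes with Rev-erb at ROR elements, had a median of 30.3 CPM, from 8.36 to 47.5 CPM. Bhlhe40 (Dec1), an E-box repressor, was the most abundant of the list, with 96.2 CPM in its lowest cell and 641 CPM in cell 10. Its r was -0.71 with Cry2 and -0.68 with Per3. Npas2, the stand-in for Clock, had counts in cells 1, 4 and 8 only, at most 2.32 CPM, and Arntl2 in 5 cells. Of the PAR bZIP group, Hlf was at 0 throughout. Tef, a relative of Dbp, had no count in cell 8 and a highest level of 50.2 CPM in cell 6, with an r of -0.66 with Arntl and 0.60 with Dbp. Nfil3, which competes with both at D-boxes and is repressed by Rev-erb, was lowest in cell 3, at 4.22 CPM, and highest in cell 7, at 107 CPM, where Nr1d1 was highest too.

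The spread of the clock genes over cells was set beside that of other genes at the same level. The dispersion residual is log10 of the squared coefficient of variation minus its running median over genes of like mean. Its median was 0.16 for the 10 clock genes and 0 for all 9701 genes by construction. All 10 clock genes were above 0, and the median was 0.08 without cell 12. Arntl had the highest, 0.63, and Clock the lowest, 0.0044. Arntl was the only clock gene over 0.5, or 1 of 10, against 10.2% of all genes, so this share was near the background. Nr1d1 followed with 0.44, Dbp with 0.31 and Per3 with 0.30. By comparison, 7 of 7 cell cycle genes named by the study and 8 of 9 immediate early genes were over 0.5. The r with the summed cell cycle genes lay between -0.17 for Dbp and 0.40 for Nr1d2.

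Genes with the most similar pattern were sought among genes whose mean reached 10 CPM with counts in 10 or more cells. For Arntl these were Flii, Ehbp1l1 and Hmg20b, with r of 0.88, 0.85 and 0.84 over 12 cells. For Dbp they included Zfp932 and Zfp992, with r of 0.89 and 0.85, and for Nr1d1 they were Nt5m, Nf2 and Psmc3, with r of 0.91, 0.88 and 0.86. Per2 was nearest to Commd5, Zfp932 and Gbp9, with r of 0.81, 0.80 and 0.79. For Per1 the genes were 2310022A10Rik, Rpap1 and Zzef1, each with r of 0.89, but leaving out cell 12 lowered these to 0.67, 0.73 and 0.69. Zfp932 stood in the lists of both Per2 and Dbp. Per2, Per3 and Dbp lay under the limits for such genes and could not be among them.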

How the data were processed

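The mRNA of 12 single cultured CPCs was copied with the Smart-Seq v4 kit, and libraries were made with Nextera XT, which does not mark strand. Alignment was done by the authors (STAR 2.5.2b, default settings, mm10), and reads with several positions were dropped. What they deposited is 1 table of unnormalized read counts, with genes in rows and cells in columns. The counting program, annotation and strand rule are not given in the sources used here. Column names gave the cell. All 66 pairs of cells differed by far more than sampling noise (chi-square per degree of freedom of at least 48.5).

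CPM scaled each cell to 1000000 counts. TPM used merged exon lengths of GENCODE vM21 (GRCm38), which 98.3% of genes matched by symbol. Correlations were Pearson's r of log2(CPM + 1) over the 12 cells, across the 9701 genes that reached a mean of 5 CPM with counts in 3 or more cells. Intervals of counts are exact Poisson intervals (0.95). Reads carry no molecular identifiers, so intervals cover counting error only. Each cell is 1 library and the labels name no animal, so no test was made. Depth limits genes near 3 counts per cell.

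Genes were named from the clock list, from fixed lists of other loop genes, PAR bZIP factors, kinases and turnover, cofactors, outputs, immediate early, glucocorticoid, cell cycle and marker genes, from exon overlap, and as the 3 nearest in pattern. A few genes that these rules name are not reported here. The members, lists and tests were chosen with earlier results of these data known. Pseudocounts, scaling, depth (thinning once to 3453708 counts), arm genes and filters were varied, and cells were left out singly. The scripts were tested on simulated data. Scripts ran under Python 3.11.15 with scipy 1.17.1, pandas 2.3.3 and numpy 2.4.6, and plots were drawn with matplotlib 3.10.9.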

Additional observations from a re-analysis of the deposited data

How the results depend on the processing

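Of 54 alternatives over 6 results other than medians, 41 moved the value by less than its spread, 13 by more, and none turned its sign; the spread was a leave-one-out error for correlations and SDs, and a factor of 1.5 for counts. In 20 alternatives for the median CPM of single genes, the value was 0.923 to 1.10 times the reported one, and the median dispersion residual was 0.12 to 0.20 in its alternatives. The comparison of Arntl with Dbp, the settings without cells 3 and 10, those with the 7 cells richer in genes, Arntl against Per2, Per3 and Dbp, and the counts of correlated clock genes or pairs without a cell were added after seeing the data. At 10 CPM, 2 clock genes were present in every cell. Opposed signs stood in 4 of the 7 cells with more detected genes. The r of the arms was -0.81 for Arntl against Nr1d1, Per3 and Dbp, -0.72 for Arntl against Per2, Per3 and Dbp, and -0.15 when each gene was divided by its SD. The SD of the arm difference was 2.19 with a pseudocount of 0.1, 1.11 with 5, 2.56 for Arntl against Nr1d1, Per3 and Dbp, and 0.993 after division by the SD. Except where fewer cells or a higher limit lower a count by construction, the cause was not tested. Among genes by lowest r with Arntl, Dbp was in place 3 with a pseudocount of 5, 2 by rank correlation, 6 without cells 3 and 10, and 156 within the 7 cells; leaving out 1 cell put it between 1 and 6, with place 6 without cell 4. No paired analysis was possible because the design has 1 group. Depth limits values near 3 counts.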

Other observations

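Of 9 kinases and turnover genes that modify or degrade clock proteins, 8 had counts in every cell, against 78.0% of the 9701 genes that passed the filter on low values. Csnk1d and Csnk1e, the casein kinases that phosphorylate Period proteins, had median levels of 103 and 82.8 CPM. Summed over the list the lowest cell had 282 CPM and the highest 592 CPM. None of the 9 genes had a dispersion residual over 0.5, and neither did any of 5 cofactors, against 10.2% of all genes, so these counts were near the background. Among the cofactors, Nono had a median of 305 CPM and Hdac3, the co-repressor enzyme of Rev-erb, 99.4 CPM.

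Of 4 genes counted among clock outputs, 0 were over 0.5, which is also near the 10.2% of all genes. Nampt, Klf9 and Klf10 had counts in 12 cells, and Wee1, a cell cycle kinase with E-boxes, in 11. Wee1 ranged up to 128 CPM in cell 5, with an r of -0.12 with Arntl. The r of Nampt was -0.26 with Arntl and 0.28 with Dbp.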
